A study of Mus musculus with 23 samples.

Results

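Expression of 38 DNA repair and damage checkpoint genes was examined in the livers of female B6C3F1 mice given furan, a heterocyclic compound that forms in heated food and causes liver tumours in rodents. The genes were chosen by symbol, for their known part in 9 repair groups. Of the 38, 37 matched a probe by its systematic name, 33 gave a signal bright enough to be among the 19899 genes tested on the arrays, and Rad51c matched none. Animals were 5 to 6 weeks old when bought and were kept for at least 7 days before dosing. All received corn oil by gavage for 21 days, alone in the 5 controls, or carrying furan at 1 mg/kg (4 animals), 2 mg/kg (5 animals), 4 mg/kg (4 animals) or 8 mg/kg (5 animals) of body weight. Liver was taken 4 h after the last dose, and each array carried the RNA of 1 animal in Cy5 against a universal mouse reference RNA in Cy3, with no dye swap. The series text counts 25 samples; 23 arrays were used, and the others were not analysed here.

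Cells repair DNA by routes that are divided by the kind of damage. Direct reversal strips an alkyl group from a base, base and nucleotide excision cut out small and bulky lesions, mismatch repair corrects copying errors, recombination and end joining mend broken strands, and translesion polymerases copy past lesions that remain. The kinases ATM and ATR sense damage and halt the cell cycle, and in the largely quiescent liver the genes tied to DNA replication are normally little expressed.

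All 8 hepatocyte markers, albumin among them, were well above background on 23 of 23 arrays. The number of probes well above background ran from 22011 to 30120 over the arrays, and 0 were saturated in Cy5. The median correlation was 0.976 between animals of 1 dose and 0.974 between doses. Pancreas markers, of which 4 of 10 were measured, averaged 2.09 to 3.11 log2 units above the control mean on 4 arrays (2 mg/kg replicates 1 and 5, 4 mg/kg replicate 1 and 8 mg/kg replicate 5) and at most 0.55 on the others. Neutrophil markers (4 of 8 measured) averaged 2.84 on 2 mg/kg replicate 4, and hepatocyte markers 0.55 to 0.84 on the 4 arrays of slide 3. In such bulk tissue, fewer cells of a type and less RNA per cell cannot be told apart.

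At 8 mg/kg, 4 of the 33 tested genes rose and 0 fell. They were Polk, a translesion polymerase gene, by 0.80 ± 0.16 log2 units (SE; 1.75-fold), Lig4, the ligase gene of end joining, by 0.68 ± 0.13 (1.60-fold), Mgmt, the gene of the alkyltransferase of direct reversal, by 0.38 ± 0.08 (1.31-fold), and Atr, the checkpoint kinase gene, by 0.28 ± 0.08 (1.22-fold), each from 5 treated and 5 control animals (limma adjusted p of 0.0041, 0.0035, 0.0058 and 0.0391). These 4 came from 4 different repair groups. The 4 of 33 make 12.1%, against 8.03% of all genes tested (4.28% higher and 3.74% lower). Of the 19899 genes tested, 12927 carried a gene symbol, as all members do. The rest stood under the systematic name of their probe. At 1, 2 and 4 mg/kg 0 members passed, where the shares of all genes were 0%, 0.0101% and 0.0754%. Here and below, a gene passed when its adjusted p in limma, over all genes tested, was under 0.05.

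The promoters of the 4 genes that rose are shown so that the sequence beside their starts can be compared. Whether the 4 genes moved together was not tested. RefSeq lists for Mgmt, Lig4 and Polk more than 1 start in build GRCm38.p6; the start with more CpG dinucleotides is shown, and for Polk the other as well, since it alone among the windows of these genes holds a p53 half-site match. Each window runs from 250 bases before to 50 bases after the start, 5′ to 3′ on the gene's strand, and capitals mark a GC box (GGGCGG on either strand) or, in the second Polk window, the p53 half-site match. The windows are Mgmt at chr7:136894336-136894635 (plus strand), Lig4 at chr8:9977631-9977930 (minus strand), Atr at chr9:95857347-95857646 (plus strand), and Polk at chr13:96542530-96542829 and chr13:96519138-96519437 (both minus strand).
Mgmt: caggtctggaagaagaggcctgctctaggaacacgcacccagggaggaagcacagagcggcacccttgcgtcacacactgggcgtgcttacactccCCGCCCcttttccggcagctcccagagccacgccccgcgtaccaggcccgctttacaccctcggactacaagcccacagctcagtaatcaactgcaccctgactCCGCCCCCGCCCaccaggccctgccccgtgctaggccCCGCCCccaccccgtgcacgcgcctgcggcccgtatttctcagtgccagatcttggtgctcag
Lig4: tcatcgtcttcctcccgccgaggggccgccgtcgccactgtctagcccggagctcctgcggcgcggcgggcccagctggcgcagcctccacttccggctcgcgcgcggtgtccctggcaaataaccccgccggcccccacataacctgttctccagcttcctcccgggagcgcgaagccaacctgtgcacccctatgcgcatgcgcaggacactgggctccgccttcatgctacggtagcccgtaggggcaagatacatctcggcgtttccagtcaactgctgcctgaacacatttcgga
Atr: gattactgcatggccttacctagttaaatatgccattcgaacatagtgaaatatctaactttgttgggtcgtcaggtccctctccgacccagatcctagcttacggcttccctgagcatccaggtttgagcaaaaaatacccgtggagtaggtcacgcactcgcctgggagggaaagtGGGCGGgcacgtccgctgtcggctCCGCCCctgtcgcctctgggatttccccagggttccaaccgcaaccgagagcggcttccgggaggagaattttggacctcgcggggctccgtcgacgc
Polk, upstream start: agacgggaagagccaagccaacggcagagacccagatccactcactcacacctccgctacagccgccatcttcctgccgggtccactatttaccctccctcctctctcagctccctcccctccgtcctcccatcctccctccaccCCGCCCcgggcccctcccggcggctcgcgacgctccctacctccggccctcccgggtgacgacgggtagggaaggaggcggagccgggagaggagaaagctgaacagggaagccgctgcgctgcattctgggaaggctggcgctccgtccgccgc
Polk, downstream start: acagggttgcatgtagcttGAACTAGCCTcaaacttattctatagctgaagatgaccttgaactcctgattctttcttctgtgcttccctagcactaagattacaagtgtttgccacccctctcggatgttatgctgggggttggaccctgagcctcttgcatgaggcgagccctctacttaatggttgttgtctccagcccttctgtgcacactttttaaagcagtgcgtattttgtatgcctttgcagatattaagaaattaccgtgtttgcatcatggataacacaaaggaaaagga

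The Mgmt window held 4 GC boxes, all reading CCGCCC on the gene's strand, at -154 to -149, -50 to -45, -44 to -39 and -13 to -8 from the start. Atr held 2, at -72 to -67 and -48 to -43, the upstream Polk window held 1 at -105 to -100, and the Lig4 window shown held none, while its other listed start had 2. The match in the downstream Polk window lay at -231 to -222. The half-site pattern is its own reverse complement, so any match to it reads on both strands. A start was listed for 31 of the 38 members, in 38 windows; Polb, Xpc, Ddb2, Ercc3, Exo1, Prkdc and Fancd2 have no entry. Of the members' windows 65.8% held a GC box, against 35.9% of 32544 windows of all genes, and their median GC content was 59.3% against 53%.

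Motifs of other factors were searched in the same windows on both strands. The E2F-type motifs TTCCCGC and TTGGCGC, bound by regulators of S-phase genes, occurred in 21.1% and 15.8% of the members' windows. Over all windows the shares were 4.63% and 2.47%, and none of the windows of the 4 genes that rose held either. Both motifs contain a CpG dinucleotide. The members' windows held a median of 21.5 CpG dinucleotides, against 7 in all windows. How far CpG content goes with the motif shares was not tested. The p53 half-site was found in 7.89% of the members' windows and 8.36% of all. The AP-1 motif TGANTCA occurred in 0% against 7.79%, the antioxidant response core TGACNNNGC in 15.8% against 12.4%, the CHR motif TTTGAA in 2.63% against 17.8%, and CCAAT in 47.4% against 37.4%. The antioxidant core matched at -55 to -47 of the Mgmt window, overlapping the GC box there.

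Mgmt was the member of direct reversal; its protein takes alkyl groups off guanine and is used up in doing so. Controls had log2 ratios of 0.76, 0.70, 0.91, 0.56 and 1.03. The 4 animals at 4 mg/kg had 1.06, 1.10, 1.08 and 1.15, and the 5 at 8 mg/kg had 1.30, 1.17, 1.12, 1.21 and 1.08. Every animal at either dose lay above every control, and the group means rose at each dose step, from 0.79 ± 0.18 (SD, n = 5) to 1.18 ± 0.09 (SD, n = 5). At 4 mg/kg the difference was 0.31 ± 0.09, and its adjusted p in limma of 0.205 did not pass. The slope on dose was 0.04 ± 0.01 log2 units per mg/kg (limma adjusted p = 0.0027). On the 4 slides that held both groups, the 8 mg/kg animals were 0.30 to 0.52 higher than control.

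Alkbh2 and Alkbh3, the other direct reversal genes, which encode oxidative demethylases, did not pass at 8 mg/kg, with differences of 0.01 to 0.06.

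**Figure D1:**
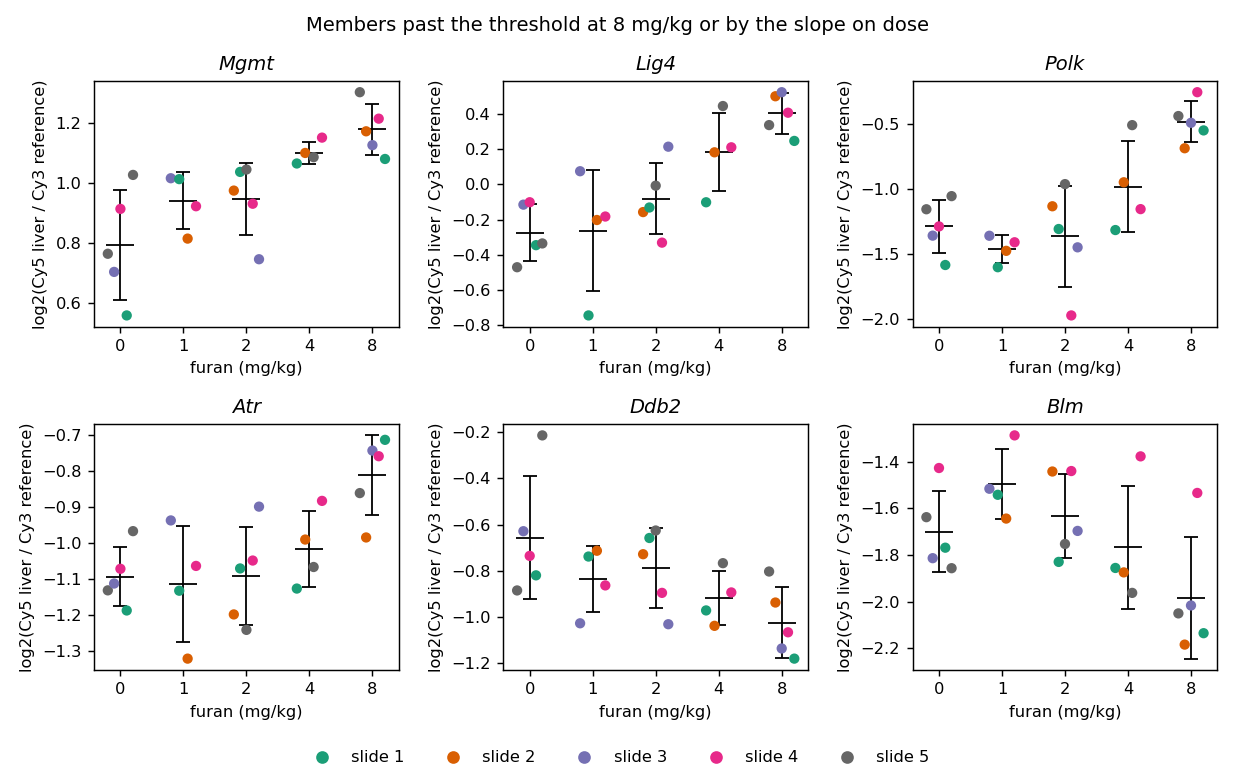
Log2 ratio of liver Cy5 to reference Cy3 signal (vertical axis) against furan dose in mg/kg (horizontal axis) for Mgmt, Lig4, Polk, Atr, Ddb2 and Blm. Each point is 1 animal, coloured by slide, and the black marks are the group mean ± SD; every 8 mg/kg animal lies above every control for Mgmt, Lig4 and Polk, and the highest Blm point at each dose is on slide 4.

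Base excision repair had 9 members and 0 passed at any dose. These genes encode the glycosylases Ogg1 (for oxidised guanine), Ung (for uracil) and Neil1 (for oxidised pyrimidines), the abasic-site nuclease Apex1, the gap-filling polymerase Polb, the scaffold Xrcc1, the break sensor Parp1 and the ligases Lig3 and Lig1. Their differences at 8 mg/kg ran from -0.41 to 0.29. Neil1 had the largest, and its differences over the 4 doses were -0.57 to -0.26.

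Neil1 in the controls measured -0.04, 0.12, -0.42, -0.48 and -0.05. The 8 mg/kg animals measured -0.91, -0.56, -0.80, -0.28 and -0.35, and those at 4 mg/kg -0.14, -0.66, -1.31 and -0.84, the third of these not well above background. The 8 mg/kg animals fell on either side of the lowest controls, so the groups overlapped. At 2 mg/kg the animals lay between -0.85 and -0.56, all below every control. The differences at 2, 4 and 8 mg/kg were -0.49 ± 0.18, -0.57 ± 0.19 and -0.41 ± 0.18, and none of the 3 passed (limma adjusted p of 0.436, 0.311 and 0.176). Within slides Neil1 at 8 mg/kg was higher than control on 2 and lower on 2.

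Apex1 differed at 8 mg/kg by 0.23 ± 0.09 (limma adjusted p = 0.126) and had a slope of 0.03 per mg/kg (adjusted p = 0.0532 in limma). Its slope passed with slide as a fixed or random block (limma adjusted p of 0.0331 and 0.0251) and with normexp (a model-based background correction), median centring, the authors' deposited ratios, an intensity trend or slide 3 left out. With normexp its 8 mg/kg difference also passed (0.33, limma adjusted p = 0.0483). Lig3 was 0.29 ± 0.14 higher (adjusted p = 0.236 in limma), and every treated animal lay above every control. Its other probe, dimmer but detected on 23 of 23 arrays, differed by -0.03, so the Lig3 probes disagreed. Ogg1, Ung, Polb, Xrcc1, Parp1 and Lig1 differed by -0.23 to 0.10, and none reached an unadjusted p of 0.05 at 8 mg/kg.

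Among 17 tested other genes of base excision, 1 rose and 0 fell at 8 mg/kg, against 4.28% and 3.74% of all genes. This was Fen1, the flap nuclease gene of long-patch repair and DNA replication. Controls measured -3.21, -3.50, -3.14, -3.49 and -3.35, and 8 mg/kg animals -3.02, -2.95, -3.01, -2.56 and -2.89. All treated animals lay above all controls, by 0.45 ± 0.12 between the means (limma adjusted p = 0.0243). Removing control replicate 2, control replicate 4 or replicate 4 at 8 mg/kg ended the call (adjusted p of 0.0626, 0.0617 and 0.0736 in limma). Fen1 also did not pass in 5 of 13 processing alternatives, namely normexp, the authors' deposited ratios, no brightness filter, and leaving out the 4 arrays high in pancreas markers (called pancreas-rich) or slide 3 (limma adjusted p of 0.058 to 0.124).

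Nucleotide excision repair had 7 members, and 0 passed against control at any dose. Xpc and Ddb2 encode proteins that recognise bulky lesions, Ercc2 and Ercc3 the helicases of the TFIIH complex, and Ercc1, Ercc4 and Ercc5 subunits of the nucleases that cut out the damaged strand. At 8 mg/kg 6 of the 7 had a difference below 0, from -0.37 for Ddb2 to -0.04 for Ercc4, and Ercc3 differed by 0.19; the median of the 7 was -0.16, against -0.03 for all genes.

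Ddb2 in the controls measured -0.88, -0.63, -0.74, -0.82 and -0.21. The 8 mg/kg animals measured -0.80, -0.94, -1.14, -1.07 and -1.18. Replicate 5 stood highest among the controls, and only replicate 1 at 8 mg/kg overlapped the control range. Ddb2 differed at 8 mg/kg by -0.37 ± 0.12 (limma adjusted p = 0.0557) and so did not pass, while with slide as a fixed block the value was -0.34 and passed (adjusted p = 0.0483 in limma). Its slope fell by 0.04 ± 0.01 per mg/kg and passed (limma adjusted p = 0.0400). Removing control replicates 2, 3 or 5, replicates 2 or 3 at 1 mg/kg, or replicates 2, 3, 4 or 5 at 8 mg/kg ended the slope's call, with adjusted p of 0.0508 to 0.107 in limma. It was also lost in 7 of 12 other ways of processing, with values of -0.04 to -0.03. Within slides Ddb2 at 8 mg/kg was 0.25 to 0.51 below control on 4 of 4.

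Ercc5 had the tightest controls of the 33 tested members, with a mean of 0.60 ± 0.02 (SD, n = 5). At 1, 2 and 4 mg/kg every animal lay below every control, with differences of -0.16 ± 0.09, -0.33 ± 0.08 and -0.27 ± 0.09, none passing (limma adjusted p of 0.999, 0.278 and 0.295). At 8 mg/kg the groups overlapped and the difference was -0.12 ± 0.08 (limma adjusted p = 0.464). Within slides Ercc5 was lower than control on every slide that held both groups, 3 of 3 at 1 and at 4 mg/kg and 4 of 4 at 2 and at 8 mg/kg. Over all members, 1 lay wholly above (Mgmt) and 1 wholly below (Ercc5) the controls at 4 mg/kg, against 1.5% and 2.14% of all genes. At 1 mg/kg Ercc5 alone lay wholly below and at 2 mg/kg Ercc5 and Neil1 did, against 0.854% and 0.729% of all genes, and 0 members lay wholly above, against 0.477% and 0.849%. The 8 mg/kg count was 4 wholly above (Mgmt, Lig4, Polk and Lig3) and 0 wholly below, against 4.48% and 4.29%. Xpc differed by -0.19 ± 0.08 at 8 mg/kg (limma adjusted p = 0.149) and was lower than control on 4 of 4 slides.

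The 17 other genes of this pathway were all tested, and 2 rose and 1 fell at 8 mg/kg (4.28% and 3.74% of all genes). Rad23b encodes a partner of Xpc in lesion recognition. It measured 0.55, 0.46, 0.33, 0.40 and 0.36 in controls and 0.97, 0.82, 0.82, 0.97 and 0.71 at 8 mg/kg, a rise of 0.44 ± 0.08 with no overlap (limma adjusted p = 0.0020). It passed in all 36 other settings and single-array removals. Gtf2h2, a TFIIH subunit gene, rose by 0.39 ± 0.10 with no overlap (limma adjusted p = 0.0213), a call that ended on removing replicate 3 of either group (adjusted p of 0.0633 and 0.0518 in limma). It also ended with normexp, with no filter and without slide 3 (limma adjusted p of 0.0529 to 0.085). Xpa, which encodes the protein that checks the lesion, fell by 0.36 ± 0.09 with every treated animal below every control (limma adjusted p = 0.0234). Removing control replicate 2, control replicate 4, or replicate 4 or 5 at 8 mg/kg ended that call, at adjusted p of 0.0511 to 0.0652 in limma. So did normexp, no filter, leaving out the pancreas-rich arrays and fitting the compared arrays only (limma adjusted p of 0.058 to 0.0854).

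**Figure D2:**
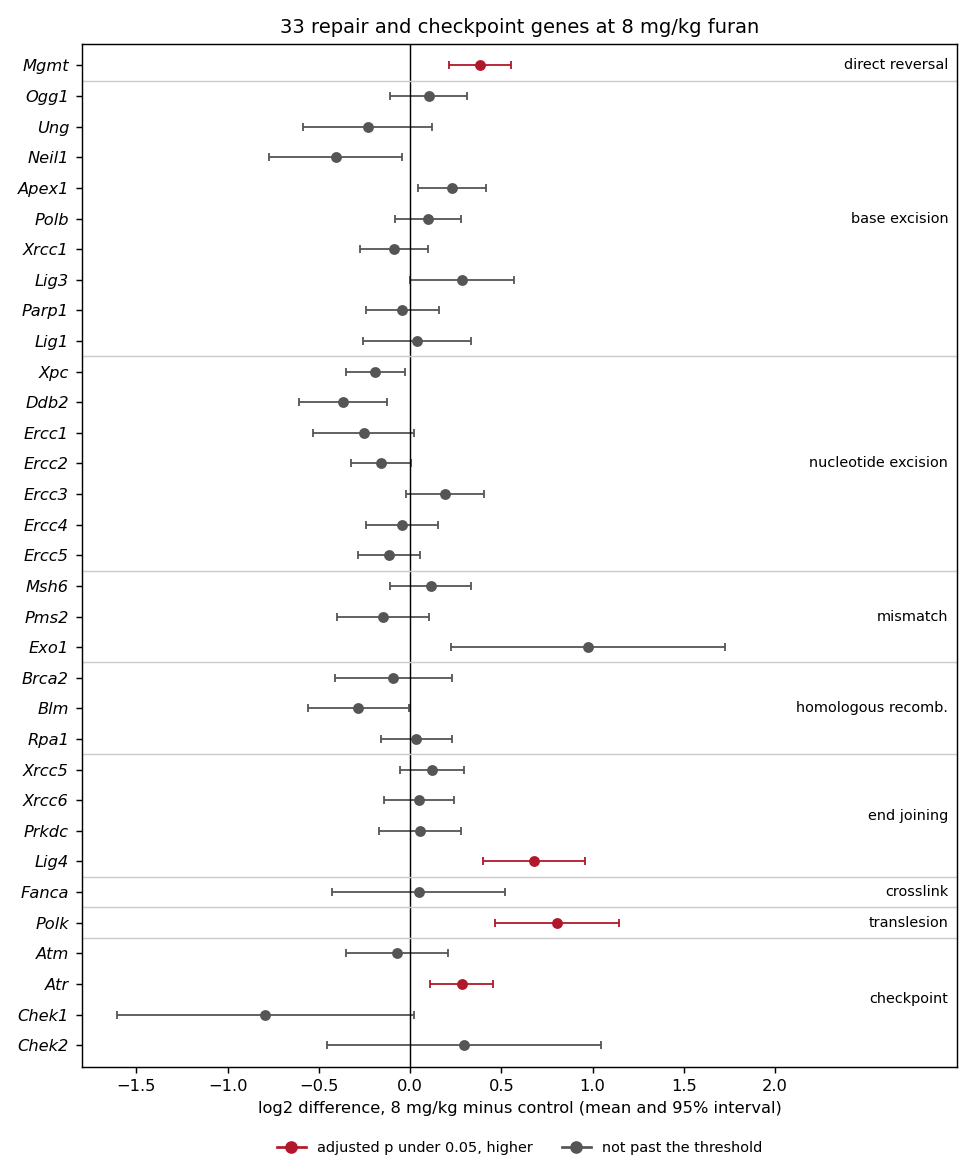
Log2 difference between the 8 mg/kg and control means (horizontal axis) for the 33 tested genes (vertical axis), in order of repair group, with 95% intervals from limma and n = 5 and 5. Red marks the 4 genes past the threshold, Mgmt, Lig4, Polk and Atr; the widest intervals belong to Exo1, Chek1 and Chek2, whose signals were dim.

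Mismatch repair had 3 members and 0 passed. Msh6, which recognises mismatches, differed at 8 mg/kg by 0.11 ± 0.11, and Pms2, the nuclease subunit that nicks the strand, by -0.15 ± 0.12. The exonuclease gene Exo1 passed the brightness filter only through the 8 mg/kg group, being well above background in 0 of 5 controls and 4 of 5 animals at 8 mg/kg. Its measured control values were -5.59, -5.98, -6.76, -7.01 and -6.23, and those at 8 mg/kg -5.66, -5.79, -4.95, -4.77 and -5.53. The mean Cy5 signal of Exo1 at 8 mg/kg was 1.45-fold the lowest signal counted as present, with replicate 2, not above background, included. Since the 8 mg/kg group alone let Exo1 through the filter, its values are not used as support for a rise. The fitted difference was 0.98 ± 0.36 (limma adjusted p = 0.105) and did not pass. With slide as a fixed block it was 1.13 and passed (adjusted p = 0.0382 in limma), and with normexp background correction of the median signals it was -0.02 (adjusted p = 0.984 in limma). At 2 mg/kg 3 of 5 animals were above background.

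Of the 12 other mismatch repair genes, 0 rose and 1 fell at 8 mg/kg, against 4.28% and 3.74% of all genes. This was Rfc5, a subunit of the clamp loader, which fell by 0.26 ± 0.07 with no overlap (limma adjusted p = 0.0171). Without control replicate 3 it did not pass (adjusted p = 0.0511 in limma), nor with normexp, median centring, the authors' deposited ratios or no filter (adjusted p of 0.0503 to 0.216).

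Homologous recombination had 6 members, of which 3 could be tested. Brca1 was well above background on 0 of 23 arrays and Rad54l, a motor protein of strand exchange, on 9 of 23, and neither was tested. Brca2, a mediator of strand exchange, differed at 8 mg/kg by -0.09 ± 0.15, and Rpa1, which coats single strands, by 0.03 ± 0.09, and neither passed.

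Blm encodes the helicase that untangles joined strands. Controls measured -1.64, -1.81, -1.43, -1.77 and -1.86, and 8 mg/kg animals -2.05, -2.19, -2.02, -1.53 and -2.14. Except for replicate 4, the 8 mg/kg animals lay below every control. The difference of -0.28 ± 0.13 did not pass (limma adjusted p = 0.222); fitted with slide as a fixed block, it was -0.29 and passed (adjusted p = 0.0291 in limma). Blm group means did not fall at each dose step. They were -1.701 in controls, -1.497, -1.632 and -1.768 at 1, 2 and 4 mg/kg, and -1.985 at 8 mg/kg. The Blm slope fell by 0.05 ± 0.02 per mg/kg and passed (limma adjusted p = 0.0444). That call ended on removing any of the 4 animals at 1 mg/kg, control replicates 1 or 3, replicates 1 or 3 at 2 mg/kg, replicates 1, 2 or 3 at 4 mg/kg, or replicates 1, 2, 3 or 5 at 8 mg/kg (adjusted p of 0.0502 to 0.131 in limma). In 6 of 12 other ways of processing it was lost as well.

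The array on slide 4 gave the highest Blm value in each of the 5 groups. The 5 arrays of slide 4 measured -1.53 to -1.29, and the 18 arrays of the other slides -2.19 to -1.44. Slide 4 held 1 animal of each dose, and within slides the 8 mg/kg animal was 0.11 to 0.37 below control on 4 of 4. Fanca behaved likewise on slide 1, whose 5 arrays measured -4.11 to -3.84, lowest in each of the 5 groups, while the other slides gave -3.84 to -2.77. The part of the slide in these values was not tested beyond the slide-blocked fits.

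**Figure D3:**
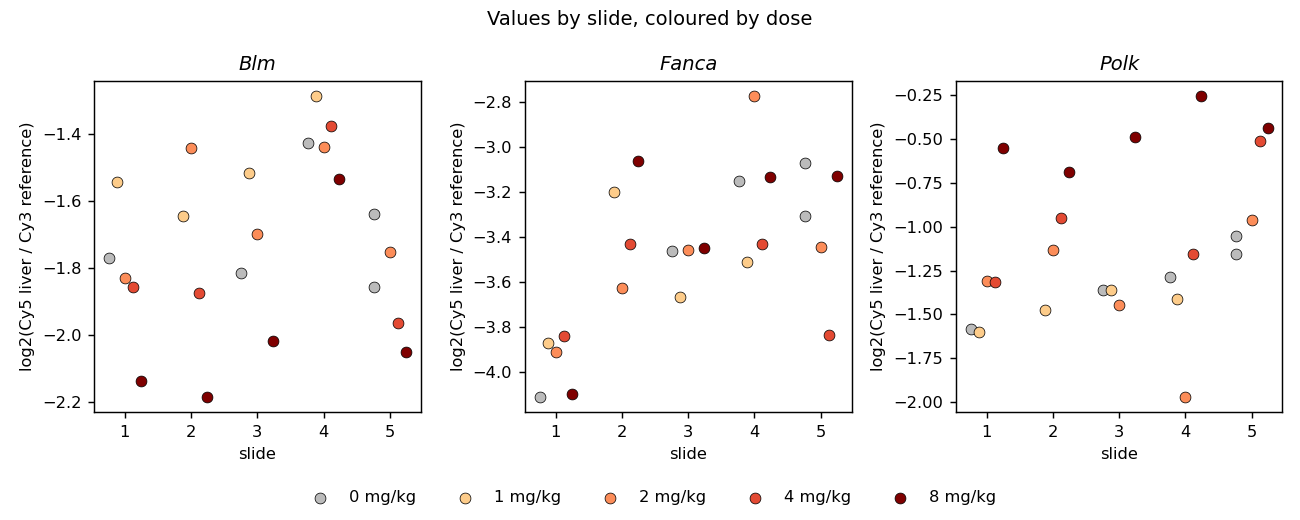
Log2 ratio of liver to reference signal (vertical axis) by slide (horizontal axis) for Blm, Fanca and Polk, with 1 point per animal coloured by dose. Blm is highest on slide 4 and Fanca lowest on slide 1 within every dose, and Polk at 8 mg/kg is highest on each of the 5 slides.

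Of 23 tested other recombination genes, 4 rose and 2 fell at 8 mg/kg, against 4.28% and 3.74% of all genes. Rad51b, which encodes a subunit of a complex that assists strand exchange, fell 2.82-fold (95% interval -2.17 to -0.82 on the log2 scale; limma adjusted p = 0.0067) and passed in all 36 other settings and array removals. Its controls measured 0.65, 2.31, 2.06, 2.65 and 2.05, and its 8 mg/kg animals 0.68, 0.33, 0.38, 0.19 and 0.66. Control replicate 1 lay inside the treated range, and the other controls stood well above it. At 4 mg/kg Rad51b measured 1.35, 0.99, 1.01 and 0.62, a difference of -0.95 that did not pass.

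Rad54b, a motor protein related to Rad54l, was 0.95 ± 0.24 higher with no overlap (limma adjusted p = 0.0187), with 3 of 5 controls above background. It did not pass without 8 mg/kg replicate 4 (0.83, adjusted p = 0.0551 in limma), without slide 3 (0.85, adjusted p = 0.0592), with normexp (0.20) or in the authors' deposited ratios (0.30). Slx4, a nuclease scaffold gene, rose by 0.40 ± 0.11 with no overlap (limma adjusted p = 0.0325), a call that ended on removing control replicates 1, 2 or 5, or replicates 2, 4 or 5 at 8 mg/kg (adjusted p of 0.0573 to 0.0866 in limma). Slx4 failed as well with normexp, in the authors' deposited ratios, with no filter and without the pancreas-rich arrays or slide 3 (limma adjusted p of 0.0758 to 0.397). Mre11a, a nuclease gene of break resection, rose by 0.35 ± 0.10 with overlapping groups (limma adjusted p = 0.0365), a call that ended on removing control replicates 3, 4 or 5, or replicates 3, 4 or 5 at 8 mg/kg (adjusted p of 0.0528 to 0.101 in limma). Mre11a passed in only 7 of 13 processing alternatives, failing with those same 5 and with the compared arrays only (limma adjusted p of 0.0694 to 0.181). The 2 called genes outside the naming rule, named after their values were seen, were the resection gene Rbbp8 (up by 0.32) and the strand exchange gene Xrcc3 (-0.40).

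End joining had 4 members, and 1 rose. Xrcc5 and Xrcc6, which encode the Ku subunits that cap broken ends, differed at 8 mg/kg by 0.12 ± 0.08 and 0.05 ± 0.09, and Prkdc, the kinase they recruit, by 0.05 ± 0.11, and none of the 3 passed. Lig4, which seals the joined ends, measured -0.47, -0.11, -0.10, -0.35 and -0.34 in controls. At 4 mg/kg it measured -0.10, 0.18, 0.45 and 0.21, and at 8 mg/kg 0.34, 0.50, 0.53, 0.41 and 0.25. Every 8 mg/kg animal lay above every control, and at 4 mg/kg 3 of 4 animals did so clearly while replicate 1 was level with the top controls. The group means rose at each dose step, although the first steps were within the spread: the differences at 1, 2 and 4 mg/kg were 0.01, 0.19 and 0.46 ± 0.14, the last with an adjusted p of 0.270 in limma. The slope was 0.09 ± 0.01 per mg/kg (limma adjusted p = 3.20e-04). Within slides Lig4 at 8 mg/kg was 0.51 to 0.74 above control. Of the 7 tested other end joining genes 0 passed at 8 mg/kg, and 1 had an unadjusted p under 0.05. The shares of all genes were 8.03% and 20.9%.

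Crosslink repair had 2 members, and 0 passed. Fancd2, the central target of the Fanconi complex, was well above background on 0 of 23 arrays and was not tested. Fanca, a subunit of that complex, measured -3.07, -3.46, -3.15, -4.11 and -3.31 in controls and -3.13, -3.06, -3.45, -3.13 and -4.10 at 8 mg/kg. The 2 ranges nearly coincided, and in each the low value was the slide 1 array. The difference was 0.05 ± 0.23 with a 95% interval of -0.43 to 0.52 (limma adjusted p = 0.949), and its sign turned in 6 of 36 other settings. Of the 9 tested other genes, 1 fell at 8 mg/kg, against 3.74% of all genes. This was Fance, by 0.29 ± 0.07 with no overlap (limma adjusted p = 0.0159). The call ended with normexp, median centring, the authors' deposited ratios or slide 3 left out (limma adjusted p of 0.0672 to 0.0911).

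Translesion synthesis had 2 members. Polh, the polymerase that copies past ultraviolet lesions, was above background on 7 of 23 arrays and was not tested. Polk encodes a polymerase known for copying past bulky guanine adducts. In the main fit it had the largest rise of the members that passed. With normexp its rise was 0.427, below Lig4 (0.514) and Mgmt (0.443). In the authors' deposited ratios it was 0.514, below Lig4 (0.565).

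Polk in the controls measured -1.16, -1.36, -1.29, -1.58 and -1.05. Animals given 1 mg/kg measured -1.36, -1.60, -1.48 and -1.41, those given 2 mg/kg -1.13, -1.31, -0.96, -1.97 and -1.45, and those given 4 mg/kg -1.32, -0.95, -0.51 and -1.16. The highest dose gave -0.44, -0.69, -0.49, -0.26 and -0.55. Every 8 mg/kg animal lay above every control, while at 4 mg/kg replicate 3 alone reached the 8 mg/kg range. Its differences at 1, 2 and 4 mg/kg were -0.17, -0.08 and 0.31 ± 0.17, and none passed. Against 4 mg/kg, the 8 mg/kg animals were 0.50 ± 0.17 higher, which did not pass either (limma adjusted p = 0.365).

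Polk within slides was 0.67 to 1.04 above control at 8 mg/kg. Its other probe was above background in only 1 of 5 controls and 4 of 5 animals at 8 mg/kg, and is not used as support. Polk passed in all 36 other settings and array removals, with differences of 0.43 to 0.86, the lowest with normexp. Among these settings, the mean over the kept probes of a gene (0.72) averaged in that dimmer probe, so it is not used as support. Of the 13 tested other translesion genes 0 passed at 8 mg/kg in limma, and 1 had an unadjusted p under 0.05. Over all genes the shares were 8.03% and 20.9%.

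The checkpoint genes had 4 members, and 1 rose. Atr, the kinase that answers stalled replication, measured -1.13, -1.11, -1.07, -1.19 and -0.97 in controls and -0.86, -0.98, -0.74, -0.76 and -0.71 at 8 mg/kg. Treated replicate 2 lay just below the highest control, and the other 4 lay above all controls. Atr passed narrowly: on removing control replicates 1, 2, 3 or 4, or replicates 1, 3, 4 or 5 at 8 mg/kg, the adjusted p in limma was 0.0542 to 0.0953, with differences of 0.26 to 0.29. Without the 4 pancreas-rich arrays it was 0.26 (adjusted p = 0.0875 in limma), and without the 4 arrays of slide 3, 0.26 (adjusted p = 0.0868 in limma). Its slope of 0.04 ± 0.01 per mg/kg passed (limma adjusted p = 0.0075), also in all 35 other settings. The slope draws on the same 8 mg/kg animals. Atr group means were -1.09 in controls, -1.11, -1.09 and -1.02 at 1, 2 and 4 mg/kg, and -0.81 at 8 mg/kg. Within slides Atr at 8 mg/kg was 0.19 to 0.47 above control.

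Atm, the kinase that answers broken strands, differed at 8 mg/kg by -0.07 ± 0.13 and its other probe by -0.21, and it did not pass. Chek1 and Chek2 encode the kinases downstream of Atr and Atm, and each was above background on 13 of 23 arrays. Chek1 measured 1.70, 0.71, 0.86, 0.49 and 1.52 in controls, of which the 0.71 and 0.49 were above background. The 8 mg/kg animals measured 0.48, -0.30, 0.17, 0.31 and 0.66, of which the 0.17 and 0.66 were. The groups overlapped, and the highest controls were on arrays where the probe was not above background. The difference was -0.79 ± 0.39 (limma adjusted p = 0.255), and for Chek2 it was 0.30 ± 0.36 (limma adjusted p = 0.723).

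Of 18 tested other checkpoint genes, 2 rose and 0 fell at 8 mg/kg, against 4.28% and 3.74% of all genes. Cdc25a, the phosphatase that the checkpoint removes, rose by 0.37 ± 0.10 with overlapping groups (limma adjusted p = 0.0216). That call ended on removing control replicate 1, or replicates 2 or 3 at 8 mg/kg (adjusted p of 0.0639, 0.0576 and 0.0645 in limma). It also ended with normexp, the authors' deposited ratios, no filter and the compared arrays only (limma adjusted p of 0.0542 to 0.165). The chromatin kinase gene Tlk2 rose by 0.39 ± 0.12 with no overlap (limma adjusted p = 0.0474), but passed in only 12 of 36 other settings and array removals, 17 of 23 removals ending the call.

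**Figure D4:**
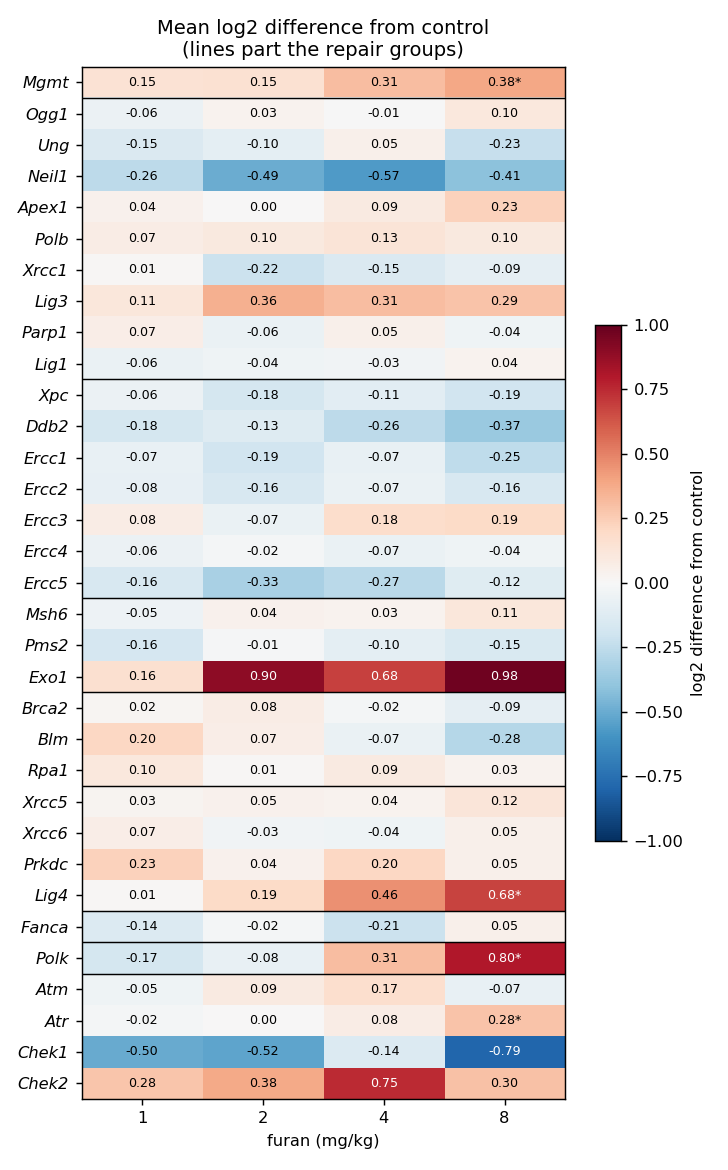
Mean log2 difference from control (colour and number) for the 33 tested genes (rows, parted by repair group) at 1, 2, 4 and 8 mg/kg (columns); an asterisk marks a difference past the threshold. The 4 asterisks all stand at 8 mg/kg, for Mgmt, Lig4, Polk and Atr.

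Taking the slope on dose over all 23 arrays, 6 of 33 members passed (18.2%, against 10.4% of all genes), of which Mgmt, Lig4, Polk and Atr rose (all genes 5.36%) and Ddb2 and Blm fell (all genes 5.07%). Between 8 and 4 mg/kg 0 members passed in limma, against 0.206% of all genes, and 2 had an unadjusted p under 0.05, against 8.41% of all genes. Without adjustment 0, 6, 6 and 11 members had a p under 0.05 at 1, 2, 4 and 8 mg/kg, where the shares of all genes were 3.5%, 8.68%, 8.92% and 20.9%. These comparisons share the 5 control animals. For the highest dose, 18 members had a difference above 0 and 15 below. Exo1, Polk, Chek1 and Lig4, 4 of 33, differed by more than 1.5-fold either way, against 5.63% of all genes. Of these, Exo1 was tested only because the 8 mg/kg group let it through the filter, so its place here is not support. Exo1 is also among the 11 members with an unadjusted p under 0.05 at 8 mg/kg and the 18 above 0. Both Exo1 and Chek1 were dim, while Mgmt and Atr changed by less than 1.5-fold. The median size of a difference was 0.16 for members and 0.15 for all genes.

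The median residual SD of a member was 0.17, against 0.24 for all genes, which gave a median SE of 0.11 for a difference at 8 mg/kg. Of the 29 members that did not pass there, 23 had a 95% interval lying wholly within a 1.5-fold change either way. The intervals of Ung, Neil1, Ddb2, Exo1, Chek1 and Chek2 reached beyond it, so for them a change of that size lay within the interval.

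In control liver 26 of the 33 members gave less signal than the reference RNA and 7 gave more. The lowest ratios belonged to Exo1 (-6.32, not above background), Fanca (-3.42) and the replicative ligase gene Lig1 (-3.37), and the highest to Ung (2.02) and Xpc (1.03), leaving aside Chek1, above background in only 2 of 5 controls. Each ratio sets 1 gene in liver against the same gene in the reference, so their order is not an order of expression levels.

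The other repair and checkpoint genes, 133 in the lists, gave 118 that were tested. Of these 9 rose and 5 fell at 8 mg/kg, 11.9% against 8.03% of all genes, and 0 passed at 4 mg/kg. Among 8 tested genes of nucleotide supply, 1 fell at 8 mg/kg, against 3.74% of all genes. Tk1, which salvages thymidine, measured -0.45, -0.29, -0.39, -0.51 and -0.05 in controls and -0.97, -0.89, -1.03, -0.82 and -0.85 at 8 mg/kg. All treated animals lay below all controls, with a fall of 0.58 ± 0.10 (limma adjusted p = 8.99e-04) that passed in all 36 other settings and removals.

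**Figure D5:**
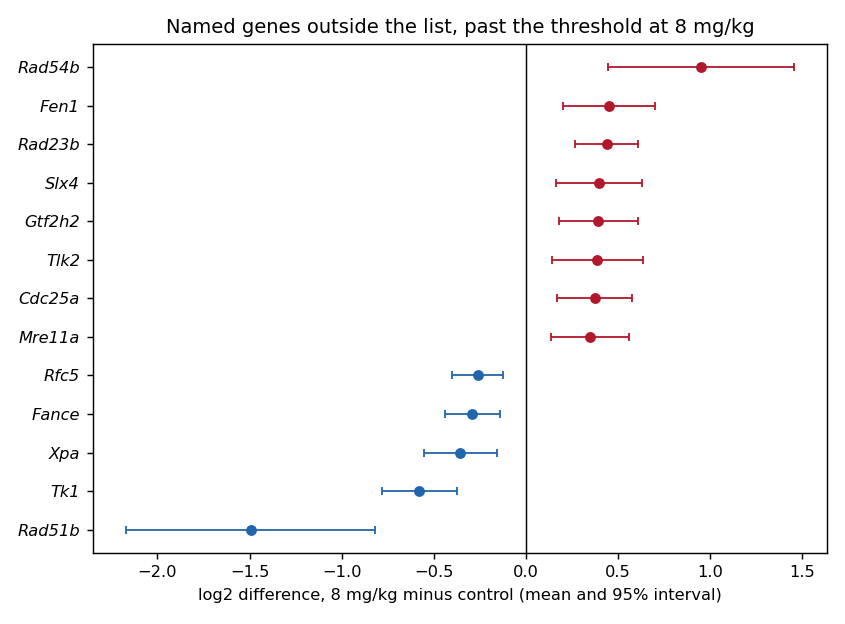
Log2 difference between the 8 mg/kg and control means (horizontal axis), with 95% intervals from limma and n = 5 and 5, for 13 repair-related genes outside the 38 (vertical axis) named by rule. Rad54b is highest and Rad51b and Tk1 lowest.

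For comparison, 9 of 9 tested genes of a p53 target list rose at 8 mg/kg, where 4.28% of all genes did. Because that list was chosen with earlier results of these data known, its count does not show how p53 targets at large behaved. It is not used as support. In that list, Cdkn1a (p21) rose by 2.79 ± 0.16 and Mdm2 by 0.66 ± 0.08 (limma adjusted p of 1.97e-09 and 6.32e-05). Of 16 tested proliferation genes 2 rose, against 4.28% of all genes. These were Mcm6 and Mcm7 of the replicative helicase (named after their values were seen). Mki67 (0.68, limma adjusted p = 0.106) and Top2a (0.30, limma adjusted p = 0.626) did not pass. Of the marker lists, 2 of 7 endothelial markers (Eng and Clec14a) fell at 8 mg/kg, against 3.74% of all genes. None passed among measured hepatocyte, pancreas, neutrophil, macrophage, lymphocyte and cholangiocyte markers. The part of these cell types in the members' values was not tested, apart from the fits without the pancreas-rich arrays. In those fits Mgmt, Lig4 and Polk passed and Atr did not.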

How the data were processed

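Liver RNA of 23 mice was hybridised against a common reference on 2-colour Agilent arrays on 5 slides. Per the file headers, the authors' deposited scanner files hold an intensity per spot and channel, background-subtracted and dye-normalised by Feature Extraction, and 0 or 1 scores for spot quality. The deposited value table holds 1 linear ratio per probe, with column medians of 0.974 to 0.987; its normalisation is not given in the sources used here. Log2 of processed Cy5 over Cy3 was loess-normalised within each array (span 0.3, 4 iterations). A probe was kept (25576 of 55681) when 4 or more arrays of some group showed it well above background, and the brightest stood for a gene. Systematic names were matched to a GRCm38.p6 table, used for names and promoters; 26413 probes matched 20018 symbols. limma 3.58.1 (R 4.3.3) fitted all 23 arrays with group, or dose as a slope, as the only term, 2-sided, with Benjamini-Hochberg over 19899 genes and a threshold of 0.05. The fit had 18 residual degrees of freedom. The code was tested on simulated data. Array number limits precision; separate animals are the replicates.

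Per-sample values are given for members past the threshold by dose or slope and for the largest difference at 8 mg/kg in each of 9 repair groups, and other repair genes that passed are named up to 4 per list. An item of the wider gene lists is not reported here. The members and lists were chosen with earlier results of these data known. Alternatives were other background corrections, normalisations, filters and probe rules, slide or replicate blocks, subsets, and leaving out each array; leaving out slide 3 was chosen after seeing the data. Replicate numbers did not pair the arrays (correlation of same-numbered control and 8 mg/kg deviations -0.15 to 0.26). Arrays of different groups on the same slide were more alike. Their deviations had a median correlation of 0.22, against -0.08 for arrays differing in number and slide. The main fit left slide out, and with slide as a fixed block Blm and Ddb2 also passed as lower at 8 mg/kg.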

Additional observations from a re-analysis of the deposited data

Results flagged for a closer look

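Blm in 8 mg/kg replicate 4 had a log2 ratio of -1.53, where the other 4 animals of the group lay between -2.19 and -2.02. This gap took up most of the group's range (0.742 of it), which set the animal apart from the rest. It was the only such value among 50 combinations of 10 named members and 5 groups, and chance sets apart about 1 in 20 groups. The array lay on slide 4, which gave the highest Blm value in every group. Without this animal the Blm slope on dose was kept.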

How the results depend on the processing

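Mgmt, Lig4 and Polk passed at 8 mg/kg in all 13 alternatives and all 23 removals of an array. For Polk, the mean over the kept probes drew on its dimmer probe as well. Atr passed in 9 alternatives and 15 removals. The 4 members called at 8 mg/kg became 3 to 5 when arrays were left out, and 7 with slide as a fixed block, which added Exo1, Blm and Ddb2. Of these, Exo1 had passed the brightness filter only through the 8 mg/kg group. At 1, 2 and 4 mg/kg and for 8 against 4 mg/kg the count stayed 0 throughout. The slope gave 6 members, 4 to 7 when arrays were left out. With the replicate block 4 members passed at 8 mg/kg and 5 by slope (Ddb2 lost), with 1530 genes at 8 mg/kg and 9 at 4 mg/kg; Tlk2 was also lost. Over all genes, 1597 passed at 8 mg/kg, against 1013 with normexp, 944 in the deposited ratios, 936 with no filter, 2458 with slide as a random block and 1053 with the compared arrays only (1163 to 1787 when arrays were left out). At 4 mg/kg 15 passed, against 53 with median centring, 6 with no filter, 63 and 120 with slide as a fixed and random block, 3 without the pancreas-rich arrays and 1 with the compared arrays only (5 to 22 when arrays were left out). The split at 8 mg/kg, 852 higher and 745 lower, was 1137 and 409 with median centring and 700 and 313 with normexp. Exo1 reversed with normexp (-0.0197), and Fanca with normexp (-0.0641), in the deposited ratios (-0.0686) and on removing control replicate 4 or replicates 1, 2 or 4 at 8 mg/kg (range over all removals -0.126 to 0.228). The cause of these moves was not tested, except that the compared arrays are fewer samples. Signals near background limit Exo1, Chek1, Chek2 and Rad54b.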
